A study of Mus musculus with 6 samples.

Results

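The 10 genes described here store iron, move it across membranes, break down heme or answer to the antioxidant transcription factor Nrf2. They were chosen by name: Fth1 and Ftl1 (ferritin chains), Tfrc and Slc11a2 (iron import), Slc40a1 (iron export), Hmox1 (heme breakdown), Nfe2l2 (Nrf2 itself), and Nqo1, Gclc and Gclm (Nrf2 targets). All 10 were found among the 54532 gene identifiers of the deposited tables, and all 10 passed the filter on low counts, as did 17042 genes in all. No measured value was used to choose them, although earlier results of these data were known.

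Polyadenylated RNA was sequenced from the cortex of 5XFAD mice in 6 libraries. This line carries mutated human transgenes of familial Alzheimer's disease, APP among them, under Thy1 promoter elements and deposits amyloid. The 3 cell-treated libraries came from 5XFAD mice given cell therapy, which the series title describes as interneurons of the GABAergic class made from human induced pluripotent stem cells, and the 3 control libraries from 5XFAD mice without it. Both groups thus carry the transgenes, and neither includes mice without them. Age, sex, strain background and sham treatment of the controls are not given in the sources used here. The comparison asks whether cortical expression differed between 5XFAD mice with and without the graft.

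Cells keep free iron low because it feeds reactions that oxidise lipids. Iron bound to transferrin enters through the receptor encoded by Tfrc and leaves the endosome through the transporter encoded by Slc11a2; what is not used is held in cages of ferritin heavy and light chains or leaves through ferroportin, the product of Slc40a1. When iron is scarce, iron regulatory proteins bind a hairpin called the iron-responsive element: at the start of a ferritin or ferroportin message this blocks translation, and at the end of the Tfrc message it protects the message from decay. Ferritin control by this route changes protein more than message, so message counts report on it only in part. Nrf2 is held back by Keap1 and, once released, joins small Maf proteins to activate genes of glutathione synthesis and detoxification; Hmox1, which frees iron from heme, and both ferritin genes are also known targets. In brain, iron is rich in oligodendrocytes and microglia, and brain endothelium carries much of the transferrin receptor.

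The hairpins are shown first because they tie the storage, import and export genes together. The element is known from ferritin, ferroportin and Tfrc messages among others, so matches in these genes were foreseen and are no independent result. The untranslated regions of all protein-coding transcripts of the GENCODE M21 annotation (GRCm38) were searched on the transcript strand for the loop CAGTGN (N not G) closed by 5 base pairs, with an unpaired C before them and at least 4 of the next 5 positions paired, counting G with T as a pair. Only 14 of 21901 genes, 0.0639%, held these letters, and 4 of the 10 genes were among them, with 7 copies. Each line gives 29 bases with the loop in capitals.
Fth1: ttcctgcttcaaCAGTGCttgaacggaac
Ftl1: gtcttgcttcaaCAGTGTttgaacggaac
Slc40a1: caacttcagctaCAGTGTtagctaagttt
Tfrc copy 1: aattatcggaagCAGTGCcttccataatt
Tfrc copy 2: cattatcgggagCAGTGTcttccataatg
Tfrc copy 3: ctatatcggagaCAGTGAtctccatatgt
Tfrc copy 4: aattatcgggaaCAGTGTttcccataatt
The Fth1 (chr19:9982732-9982760, plus strand), Ftl1 (chr7:45459779-45459807, minus strand) and Slc40a1 (chr1:45925465-45925493, minus strand) copies lay in 5′ untranslated exons. The 4 Tfrc copies lay in its 3′ untranslated exon on the plus strand of chromosome 16, at 32631219 to 32631247, 32631598 to 32631626, 32631663 to 32631691 and 32631710 to 32631738. No match was found in the other 6 genes, Slc11a2 among them, which says only that letters of this strict form are not there. Elements of another form were not searched for. A match is a description and was not tested for binding.

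Total counts ranged from 14221519 to 16696463 per library. Cell-treated library 3 stood apart before any comparison: over genes, which are no replicates, its Pearson correlation with the other 5 libraries averaged 0.936, and theirs 0.963 to 0.968. The mitochondrial genome gave 1.95% of reads in control library 3, and 4.49% to 8.78% elsewhere. All 6 markers of cortical excitatory neurons had reads in every library, with Slc17a7 at 844 to 1409 CPM (counts scaled to library size with edgeR's TMM factors) in cell-treated libraries and 861 to 1312 in controls. Striatal markers were present as well, with Ppp1r1b at 62.0 to 124 CPM in cell-treated libraries and 179 to 464 in controls. All 7 striatal markers listed had lower fitted values in cell-treated libraries (median log2 fold change -1.76), 4 of them without overlap, beside 8.60% of all genes. All 8 astrocyte and all 8 oligodendrocyte markers were lower too (medians -0.51 and -0.37), 0 without overlap. EdgeR called 0 of these markers. The part of tissue content in the values below was not tested. The columns taken as controls are named for the disease and not by their titles, so the sign of each difference rests on that inference. The series' design text also swaps the words, using control for mice given cells and experimental for those without, whereas titles and treatment labels of the samples call mice given cells treated; the sample labels and the word treated in the other 3 column names were followed here.

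Neither ferritin, iron transport, heme breakdown nor Nrf2-target messages differed between the groups by more than the spread among libraries. Of the 10 genes, 7 had higher and 3 lower fitted values in cell-treated cortex, with a median log2 fold change of 0.093, beside 0.0013 over all genes tested, of which 50.2% were higher. The number with higher values was 10 when control library 1 was left out and 3 when both libraries numbered 3 were left out. None of the 10 was called by edgeR's quasi-likelihood test at an adjusted p of 0.05 (percent called over all genes 0), by DESeq2 or by limma voom, and the smallest adjusted p among them in edgeR was 0.999. DESeq2 called 11 other genes of the whole table and limma voom 0, and both called 0 of the related genes listed further on. At an unadjusted p under 0.05 edgeR had 0 of the 10 and 340 of all genes (2.0%). The groups overlapped for all 10, beside 8.60% of all genes without overlap. So few genes cannot show a departure from that share. A p above the threshold is no evidence of equal levels: the 95% intervals of the log2 fold changes ran as wide as -0.80 to 1.04 for Hmox1 and as narrow as -0.28 to 0.50 for Gclm.

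**Figure D1:**
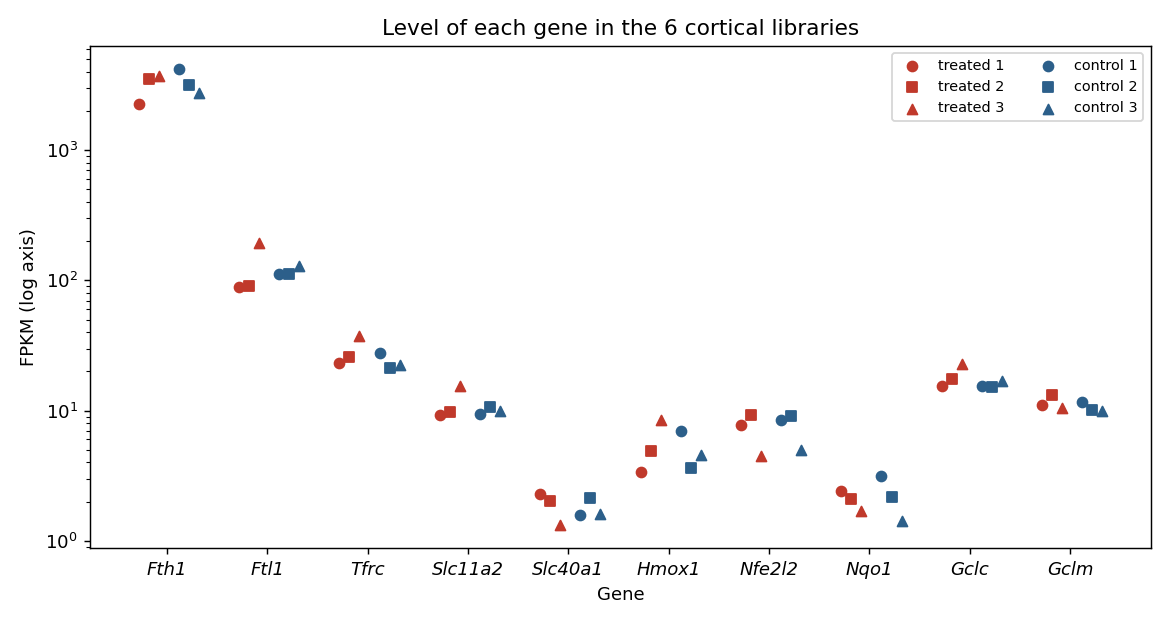
Deposited FPKM of each gene on a log axis, with 3 cell-treated libraries (red) left of 3 control libraries (blue) for each gene. Fth1 sat far above the rest, between 2286 and 4229 FPKM, and the symbols of the groups overlapped for every gene.

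Levels of different genes can be compared only per length, so FPKM (fragments scaled by gene length and library total) was used for their order. Fth1 had the highest level, 3191 ± 791 FPKM with cell therapy and 3381 ± 767 without (SD, n = 3 each, as for all means below). Ftl1 followed at 125 ± 60.1 and 118 ± 9.34 FPKM, then Tfrc at 28.8 ± 7.56 and 23.9 ± 3.38, and Gclc at 18.6 ± 3.87 and 15.8 ± 0.801, cell-treated first in each pair. Gclm (11.6 ± 1.45 and 10.6 ± 1.0 FPKM) and Slc11a2 (11.5 ± 3.40 and 9.96 ± 0.599) came next and did not differ from each other beyond their spread. Nfe2l2 (7.14 ± 2.43 and 7.52 ± 2.21 FPKM) and Hmox1 (5.58 ± 2.63 and 5.07 ± 1.75) overlapped as well, as did Nqo1 (2.07 ± 0.359 and 2.24 ± 0.848) and Slc40a1 (1.88 ± 0.509 and 1.77 ± 0.319) at the low end. The order was the same in both groups. FPKM rests on the deposited gene length, which can differ from that of the longest coding transcript. The lengths were 9000 against 3370 bases for Slc40a1, 866 against 1494 for Fth1 and 1340 against 968 for Ftl1. The order, and the FPKM ratios between genes given below, depend on the length used. The place of Slc40a1 at the low end is uncertain for that reason.

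Ferritin heavy chain, the subunit that oxidises iron for storage, gave the most abundant message of the 10. Fth1 (ENSMUSG00000024661, chromosome 19, 9982703 to 9985092, plus strand) had 1985, 3068 and 3213 CPM in cell-treated libraries 1, 2 and 3, against 3705, 2764 and 2387 CPM in control libraries 1, 2 and 3. The lowest value was a cell-treated one and the highest a control one, with the other 4 interleaved. Its log2 fold change was -0.10 ± 0.287 (SE; 95% interval -0.76 to 0.56; edgeR adjusted p 0.999). Leaving out control library 1 turned it to 0.097, and leaving out cell-treated library 1 to 0.089.

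The light chain, which helps the iron core form, behaved otherwise across libraries. Ftl1 (ENSMUSG00000050708, chromosome 7, 45457944 to 45459884, minus strand) had 121, 122 and 258 CPM in cell-treated libraries, against 153, 151 and 173 CPM in controls. Cell-treated libraries 1 and 2 lay below every control and cell-treated library 3 above every control. The log2 fold change was 0.071 ± 0.308 (SE; 95% interval -0.64 to 0.78; edgeR adjusted p 0.999), and without cell-treated library 3 it was -0.39, at an unadjusted p of 0.0333 and an adjusted p of 0.914 in edgeR. Its reads are uncertain: of the 100-base windows in its longest coding transcript, 78.6% also occur in a transcript of another annotated gene, against 0.573% for Fth1 and 0 for the other 8. Those other genes of Ftl1 include Gm10252 and Gm22133, which overlap it, with at most 6 and 0 reads in a library. Windows shared with them may be the same place in the genome, so 78.6% may overstate the share that fits several places. The copy Ftl1-ps1 was counted at 17 to 71 reads per library and 4 further ferritin pseudogenes at 0 to 8, whereas Ftl1 had 1809 to 4149. The sources used here do not say how reads that fit several places were counted, so the level of Ftl1 and its distance from Fth1 are uncertain.

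Within a library, Fth1 exceeded Ftl1 by 25.4, 38.8 and 19.3 times in FPKM in cell-treated libraries 1, 2 and 3, and by 37.5, 28.4 and 21.3 times in the controls. The ratio ranged widely in both groups, and the exact two-sided permutation test on its log2 gave p = 0.8, where 0.1 is the smallest that 3 against 3 libraries allow. Control library 1 and cell-treated library 2, with the highest ratios, also had the highest summed counts of 8 oligodendrocyte markers, 8747 CPM in control library 1 and 8070 CPM in cell-treated library 2, against 3123 to 6083 in the other 4. The part of oligodendrocyte content in the ratio was not tested, and in bulk tissue fewer cells of a type and less RNA per cell cannot be told apart.

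Import genes had their highest values in a single cell-treated library. Tfrc (ENSMUSG00000022797, chromosome 16, 32608920 to 32632794, plus strand), the transferrin receptor, had 145, 159 and 229 CPM in cell-treated libraries, against 173, 133 and 140 CPM in controls. Control library 1 lay above cell-treated libraries 1 and 2. The log2 fold change was 0.25 ± 0.224 (SE; 95% interval -0.26 to 0.77; edgeR adjusted p 0.999), and without cell-treated library 3 it was 0.026.

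Slc11a2 (ENSMUSG00000023030, chromosome 15, 100387898 to 100425072, minus strand), which carries ferrous iron out of endosomes, had 59.3, 62.3 and 97.0 CPM in cell-treated libraries, against 60.3, 67.4 and 63.5 CPM in controls. The controls and cell-treated libraries 1 and 2 lay within 59.3 to 67.4 CPM, and cell-treated library 3 lay outside. The log2 fold change of 0.19 ± 0.217 (SE; edgeR adjusted p 0.999) was -0.070 without that library.

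The exporter was lowest in that same library. Slc40a1 (ENSMUSG00000025993, chromosome 1, 45908068 to 45926523, minus strand), the one known iron exporter of mammalian cells, had 20.7, 18.4 and 11.7 CPM in cell-treated libraries, against 14.4, 19.4 and 14.4 CPM in controls. Cell-treated library 1 was the highest of the 6 and cell-treated library 3 the lowest. Its log2 fold change was 0.074 ± 0.267 (SE; edgeR adjusted p 0.999), a value that became 0.28 when cell-treated library 3 was left out and -0.098 when cell-treated library 1 was. The FPKM ratio of Tfrc to Slc40a1, import over export, was 10.2, 12.6 and 28.5 in cell-treated libraries, against 17.5, 9.98 and 14.1 in controls (exact permutation p = 0.8, two-sided). A single library, cell-treated 3, held the widest ratio, and without it the mean log2 difference was -0.26 instead of 0.19.

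Among the 14 genes with the hairpin letters, 13 were tested, 6 with higher and 7 with lower values, and edgeR called 0. Beside Fth1, Ftl1, Slc40a1 and Tfrc these included Alas2, an erythroid enzyme of heme synthesis, with a log2 fold change of 1.99 ± 0.555 (SE). Ppp1r1b had -1.76 ± 0.388. Ftl1-ps1, Trim23, Zbtb44, Fbxl14, Slitrk2 and 2010111I01Rik were also among them, between -0.22 (Slitrk2) and 0.35 (Trim23). Glyat was not tested. Alas2, known from red-cell precursors, was at 4.01, 3.92 and 7.34 CPM in cell-treated libraries, against 2.0, 1.40 and 0.447 CPM in controls.

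Heme breakdown by Hmox1, an inducible enzyme that turns heme into biliverdin, carbon monoxide and iron, varied more within each group than its group means differed. Hmox1 (ENSMUSG00000005413, chromosome 8, 75093621 to 75100589, plus strand) had 5.96, 8.51 and 14.7 CPM in cell-treated libraries, against 12.4, 6.38 and 8.05 CPM in controls, from 91 to 237 reads per library. The means were 9.74 ± 4.52 CPM in cell-treated libraries and 8.95 ± 3.12 CPM in controls (SD). One library of each group was high, cell-treated library 3 and control library 1. The log2 fold change was 0.12 ± 0.399 (SE; 95% interval -0.80 to 1.04; edgeR adjusted p 0.999), a value that became -0.31 when cell-treated library 3 was left out and 0.43 when control library 1 was.

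Erythroid genes are given beside Hmox1 because heme is its substrate. The summed level of 5 erythroid genes (4 hemoglobin genes and Alas2) was 105, 136 and 275 CPM in cell-treated libraries, against 49.4, 18.9 and 6.78 CPM in controls. All 5 genes were above every control in each cell-treated library, beside 8.60% of all genes without overlap in either direction. EdgeR called 0 of the 5 (smallest adjusted p 0.999). Control library 1 had the highest sum of the controls. The highest value of each group was in the same library for blood and for Hmox1, and the order within the cell-treated libraries was the same. Over all libraries the orders differed. Cell-treated library 1 had more erythroid message than every control but the lowest Hmox1 of all (5.96 CPM). Control library 2 was above control library 3 for blood and below it for Hmox1. The part of blood in Hmox1 was not tested. Of 10 other genes of heme handling, 6 had higher and 4 lower values, edgeR called 0 in either direction (0 at an unadjusted p under 0.05), and the median log2 fold change was 0.046. The 3 of smallest p among those with a mean log2 CPM of at least 1 were Fech, which inserts iron into heme (0.27 ± 0.185, log2 fold change and SE; 0.12 without cell-treated library 3), Cd163, the hemoglobin receptor of macrophages (-0.38 ± 0.532), and Slc48a1, which exports heme from lysosomes (-0.10 ± 0.204).

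**Figure D2:**
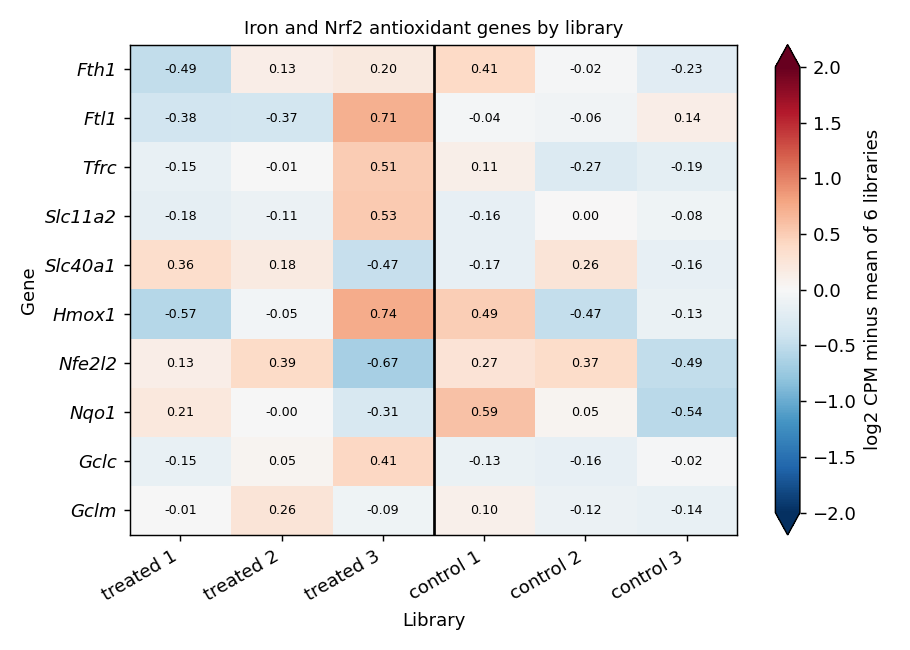
Log2 CPM of each gene minus its mean over the 6 libraries, one column per library with the cell-treated libraries on the left. Cell-treated library 3 was above the mean by 0.71 for Ftl1, 0.51 for Tfrc, 0.53 for Slc11a2, 0.74 for Hmox1 and 0.41 for Gclc, and below it by -0.67 for Nfe2l2 and -0.47 for Slc40a1.

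Nfe2l2 encodes Nrf2, whose activity is set mainly by the stability of the protein. Nfe2l2 (ENSMUSG00000015839, chromosome 2, 75675513 to 75704641, minus strand) had 29.3, 35.1 and 16.9 CPM in cell-treated libraries, against 32.4, 34.8 and 19.1 CPM in controls. The same pattern stood in both groups: replicate 3 was low and the other 4 libraries lay within 29.3 to 35.1 CPM. The log2 fold change was -0.086 ± 0.326 (SE; 95% interval -0.84 to 0.67; edgeR adjusted p 0.999). It became 0.16 when cell-treated library 3 was left out, -0.31 when control library 3 was, and -0.060 when both were. Both libraries also had the lowest summed levels of 8 astrocyte markers, 1301 CPM in cell-treated library 3 and 4381 CPM in control library 3, against 5387 to 7936 in the other 4; the part of astrocyte content was not tested.

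Nqo1, a quinone reductase and a classical Nrf2 target (ENSMUSG00000003849, chromosome 8, 107388225 to 107403206, minus strand), had 3.76, 3.24 and 2.61 CPM in cell-treated libraries, against 4.90, 3.37 and 2.24 CPM in controls. As for Nfe2l2, replicate 3 was the lowest of each group. With 35 to 71 reads per library, its counting error is the largest of the 10 genes. The log2 fold change of -0.13 ± 0.381 (SE; edgeR adjusted p 0.999) became 0.19 when control library 1 was left out and -0.37 when control library 3 was.

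Glutamate-cysteine ligase makes the first and limiting step of glutathione synthesis, with a catalytic subunit from Gclc and a modifier subunit from Gclm. Gclc (ENSMUSG00000032350, chromosome 9, 77754535 to 77794485, plus strand) had 58.0, 66.5 and 85.3 CPM in cell-treated libraries, against 59.0, 57.7 and 63.5 CPM in controls. Cell-treated libraries 2 and 3 lay above every control and cell-treated library 1 among them. It had the smallest p of the 10 genes, an unadjusted p of 0.268 in edgeR (adjusted p 0.999), with a log2 fold change of 0.22 ± 0.184 (SE; 95% interval -0.21 to 0.64), which was 0.049 without cell-treated library 3.

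Gclm (ENSMUSG00000028124, chromosome 3, 122245557 to 122270732, plus strand) had 69.1, 83.2 and 65.3 CPM in cell-treated libraries, against 74.7, 63.7 and 62.9 CPM in controls. It was the steadiest of the 10, within 62.9 to 83.2 CPM, and its log2 fold change was 0.11 ± 0.168 (SE; edgeR adjusted p 0.999). A gene on the opposite strand, Gm17494, overlaps it with up to 120 reads per library, and reads of the pair cannot be told apart without strand. The FPKM ratio of Gclc to Gclm was 1.40, 1.34 and 2.18 in cell-treated libraries, against 1.32, 1.51 and 1.69 in controls (exact permutation p = 0.8, two-sided; adjusted over the 3 ratios 0.8). The catalytic subunit thus had more message per length than the modifier in all 6 libraries, with the widest ratio in cell-treated library 3.

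**Figure D3:**
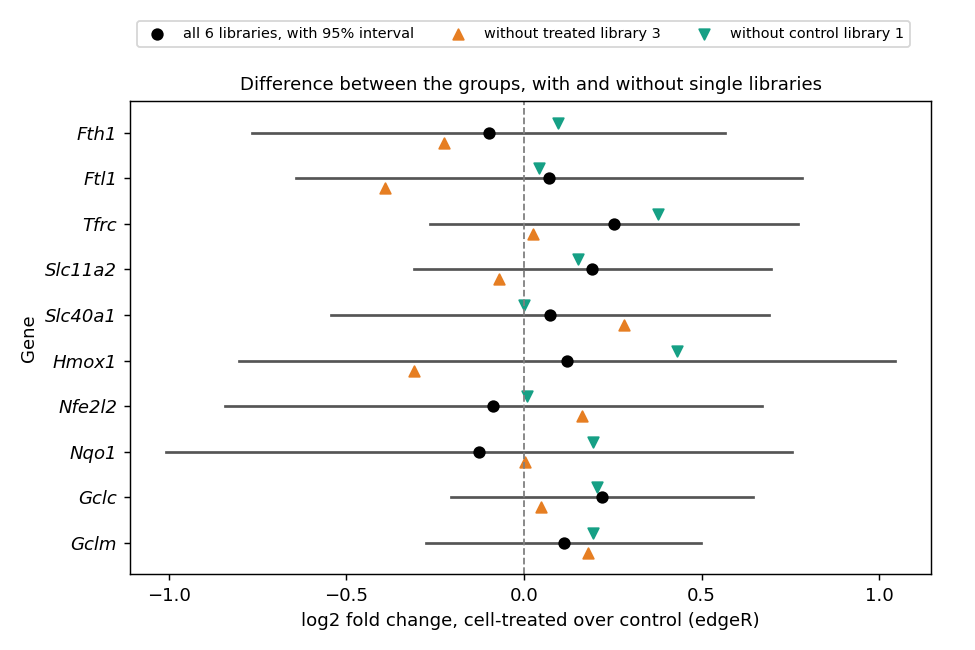
Log2 fold change of each gene, cell-treated over control, from edgeR with its 95% interval (black), without cell-treated library 3 (orange) and without control library 1 (green). Every interval crossed 0, and without cell-treated library 3 the values of Ftl1, Slc11a2 and Hmox1 lay below 0, as that of Fth1 did with and without it.

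Single libraries held many of the extreme values. Cell-treated library 3 held the highest value of 5 of the 10 (Ftl1, Tfrc, Slc11a2, Hmox1 and Gclc), beside 28.7% of all genes, and the lowest of 2 (Slc40a1 and Nfe2l2), beside 32.6%. None of the 10 was 2-fold above every other library there, as 2.43% of all genes were. The same library held the highest summed levels of 8 microglial markers (1341 CPM, against 625 to 969 in the other 5), of 10 border macrophage and myeloid markers (205 CPM, against 99.2 to 157) and of 8 endothelial markers (775 CPM, against 387 to 627), as well as the lowest of the astrocyte and oligodendrocyte lists. Within the border macrophage and myeloid list that sum followed Lgals3 (45.3 CPM, against 1.51 to 4.28 in the other 5) and Cd68 (65.5 CPM, against 22.3 to 45.6). Of its border macrophage markers, Mrc1 at 3.23 CPM (1.66 to 8.41 in the other 5), F13a1 at 2.05 CPM (0.511 to 4.98) and Pf4 at 0 reads were not high there. The mean deviation of log2 CPM over the tested genes of the list was still highest there (0.748, against -1.03 to 0.435). These 5 are named after their values were seen. All 8 microglial and all 8 endothelial markers had reads. The part of these cells in the ferritin, import and Hmox1 values was not tested.

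Regulators and further targets of Nrf2 were read from whole lists of related genes. Of 8 regulators, 6 had higher and 2 lower values and edgeR called 0 in either direction, with 1 at an unadjusted p under 0.05; the median log2 fold change was 0.22. That gene was Cul3, the scaffold of the ubiquitin ligase that degrades Nrf2, at 154, 146 and 213 CPM in cell-treated libraries, against 124, 117 and 127 CPM in controls (log2 fold change 0.48 ± 0.193, SE; edgeR unadjusted p 0.0388, adjusted 0.999). All 3 cell-treated values lay above all 3 controls, and without cell-treated library 3 the log2 fold change was 0.29. Bach1, a heme-sensing repressor of Hmox1, also did not overlap, at 30.6, 24.7 and 33.1 CPM in cell-treated libraries, against 23.4, 24.3 and 20.8 CPM in controls (log2 fold change 0.37 ± 0.186, SE; unadjusted p 0.0820, adjusted 0.999 in edgeR). Non-overlap of 2 of 8 genes stands beside 8.60% of all genes. Maff, a small Maf partner, reached 22.9 CPM in cell-treated library 3, against 2.17 to 5.04 CPM elsewhere.

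Of 20 further Nrf2 target and glutathione genes, 9 had higher and 11 lower values, with a median log2 fold change of -0.013; edgeR called 0 and had 1 at an unadjusted p under 0.05. That gene was Ephx1, an epoxide hydrolase, at 23.2, 24.9 and 16.7 CPM in cell-treated libraries, against 32.4, 39.8 and 28.8 CPM in controls. The groups did not overlap (log2 fold change -0.64 ± 0.221, SE; edgeR unadjusted p 0.0202, adjusted 0.999), and the value was -0.49 without cell-treated library 3. It was the 1 gene of the 20 without overlap, beside 8.60% of all genes. Over all genes, 2.0% had an unadjusted p under 0.05 in edgeR. Srxn1, which repairs oxidised peroxiredoxins, had 74.5, 84.7 and 359 CPM in cell-treated libraries, against 123, 66.3 and 95.1 CPM in controls, and its log2 fold change of 0.87 ± 0.590 (SE) was -0.25 without cell-treated library 3. Gsta4, a glutathione transferase for lipid aldehydes, had -0.37 ± 0.258 (log2 fold change, SE), a value that became -0.62 when cell-treated library 1 was left out and -0.19 when cell-treated library 3 was.

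Targets of Nrf2 went both ways in cell-treated library 3, with more at their highest than at their lowest. Of the 20 Nrf2 target and glutathione genes, 11 had their highest value there (55%, beside 28.7% of all genes). Their lowest value was there for 6 (30%, beside 32.6%). Of the 8 regulators, 6 were highest and 1 lowest there (75% and 12.5%). That library also had the lowest summed level of astrocyte markers, and the part of cell content was not tested. Srxn1 and the thioredoxin gene Txn1 (118 CPM, against 41.5 to 52.4 in the other 5) were at their highest there, whereas Slc7a11, the cystine carrier for glutathione synthesis (22.8 CPM, against 43.7 to 139), and Gstm1, a glutathione transferase (64.2 CPM, against 128 to 278), were at their lowest. Over 66 tested genes of the 5 related lists, 32 had their highest value in that library (48.5%, beside 28.7% of all genes) and 14 their lowest (21.2%, beside 32.6%). At least 2-fold above every other library there were 5 of the 66, or 7.58%, beside 2.43% of all genes: Maff, Mafk, Srxn1, Txn1 and Gch1. Txn1, Mafk, Gch1, Slc7a11 and Gstm1 are named here after their values were seen.

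**Figure D4:**
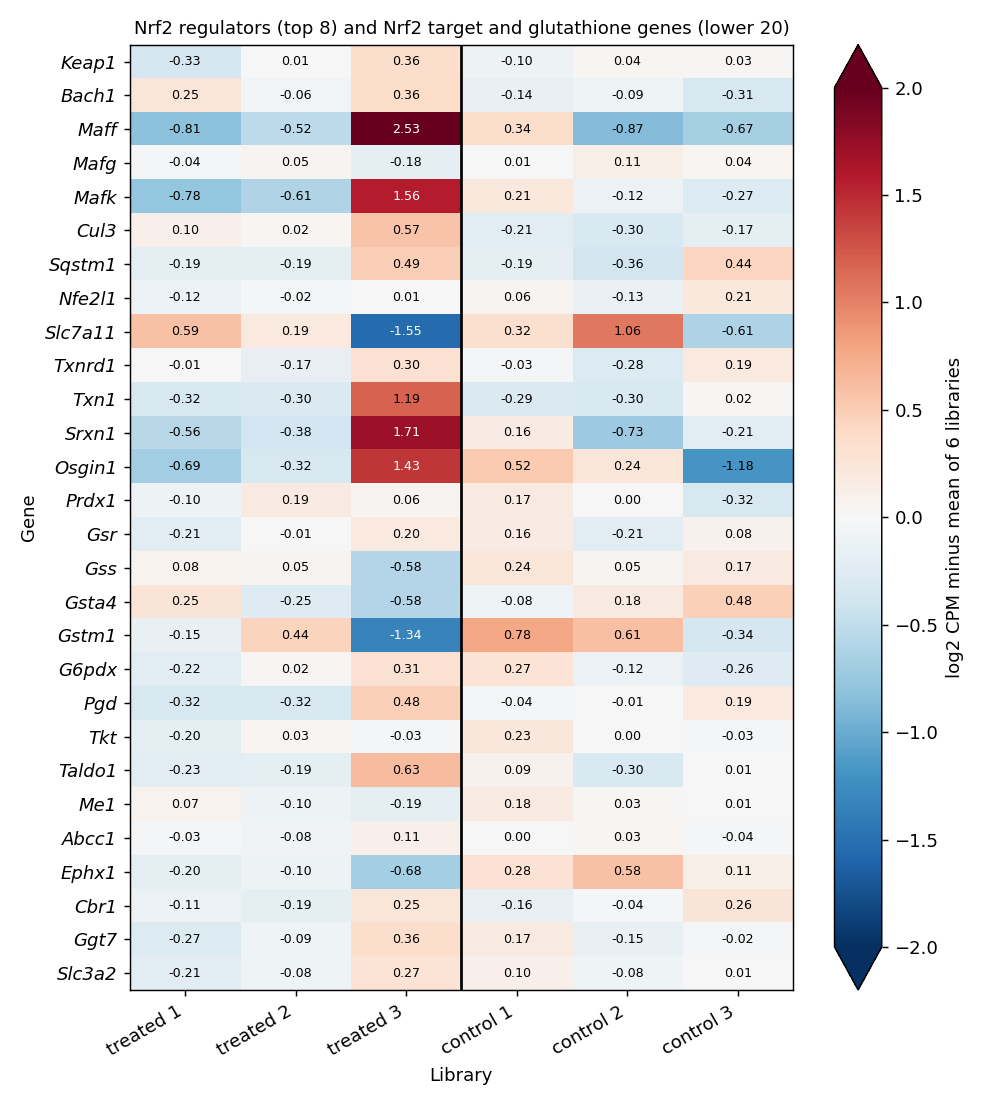
Deviation of log2 CPM from the 6-library mean for 8 Nrf2 regulators and 20 Nrf2 target and glutathione genes, cell-treated libraries on the left. In cell-treated library 3, Maff (2.53), Srxn1 (1.71), Mafk (1.56) and Osgin1 (1.43) were above the mean and Slc7a11 (-1.55) and Gstm1 (-1.34) below it, while cell-treated libraries 1 and 2 lay between -0.81 and 0.59 and the controls between -1.18 and 1.06.

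Other genes of iron handling gave a similar picture. Of 22 listed, 20 were tested, with Hamp and Ftmt below the filter; 13 had higher and 7 lower values, edgeR called 0 (0 at an unadjusted p under 0.05), and the median log2 fold change was 0.083. Steap2, a metalloreductase, had the smallest p, at 31.0, 16.4 and 18.8 CPM in cell-treated libraries, against 10.3, 15.1 and 17.3 CPM in controls (log2 fold change 0.64 ± 0.309, SE; adjusted p 0.999 in edgeR), and it was 0.31 without cell-treated library 1. Pcbp1, an iron chaperone for ferritin, had 0.30 ± 0.203 and Ireb2, one of the iron regulatory proteins, 0.21 ± 0.150 (log2 fold changes, SE). Pcbp1 was at 0.082 without cell-treated library 3 and Ireb2 at 0.12 without cell-treated library 1. The groups did not overlap for 2 of the 20, a share near the 8.60% of all genes. They were Ireb2, with higher values in cell-treated libraries, and Aco1, with lower values. Ireb2 was at 89.9, 77.1 and 75.3 CPM in cell-treated libraries, against 71.2, 70.5 and 68.1 CPM in controls. Aco1, the other iron regulatory protein, named after its values were seen, was at 32.2, 32.2 and 23.9 CPM in cell-treated libraries, against 34.7, 35.1 and 34.7 CPM in controls (log2 fold change -0.24 ± 0.180, SE; edgeR adjusted p 0.999).

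Genes of lipid peroxidation and its defence, the process named ferroptosis when it kills cells, were 9, of which 8 were tested. Of these, 4 had higher and 4 lower values, edgeR called 0 (0 at an unadjusted p under 0.05), and the median log2 fold change was 0.045. Acsl4, which loads membranes with oxidisable lipids, had 0.37 ± 0.224, Dhodh -0.35 ± 0.236 and Aifm2, a reductase of the quinone defence, -0.25 ± 0.238 (log2 fold changes, SE). Acsl4 was at 0.16 without cell-treated library 3, Dhodh at -0.11 without control library 3 and Aifm2 at -0.095 without cell-treated library 2. Aifm2 was at 10.7, 7.30 and 10.4 CPM in cell-treated libraries, against 10.98, 11.4 and 11.3 CPM in controls, without overlap, the 1 such gene of the 8 (8.60% of all genes).

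For 3 genes the messages with the most similar pattern over the 6 libraries were sought among 10915 genes of average log2 CPM 3 or more. Predicted genes, with symbols of Gm followed by digits or ending in Rik, were left out of these candidates. With so few libraries high values arise easily: 20 genes had a Pearson r above 0.95 with Fth1, 44 with Hmox1 and 101 with Tfrc. The closest to Fth1 were Phka2 (r = 0.996), Mras, Lilrb4a, Zbtb7b and Col5a1 (0.98). Among the 5 closest to Hmox1 were Msrb1 (0.995), Nkain1, Rpl22 and Cplx3 (0.987), and closest to Tfrc were Mrps18a (0.998), Atp5c1, Grik4, Ctdnep1 and Wbp2 (0.988). These are descriptions over 6 libraries that include cell-treated library 3.

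Promoter windows of 300 bases (250 before to 50 after the start; RefSeq, GRCm38.p6) were given for 6 of the 10 genes, in 8 windows. The letters TGACNNNGC, the core to which Nrf2 with a small Maf protein binds, occurred on either strand in 2 of the 8, one of Gclm and one of Nfe2l2, beside 12.4% of 32851 windows of all genes. Known Nrf2 sites of several of these genes lie farther upstream, so the absence of the letters in a window says nothing about the factor.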

How the data were processed

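Counts of reads per gene and FPKM values for 6 libraries were used as deposited; the tools listed in the submitters' processing notes are HISAT2 2.0.5, DESeq2 and featureCounts, without settings, and no build is named in the sources used here. The deposited FPKM equalled counts over gene length and a library total of 0.953 to 1.03 times the summed counts. A deposited table of group means was not used. A strand-marking kit is not named, and human reads of the graft were not separated, so they may enter mouse counts.

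Counts were fitted with edgeR 4.0.16 in R 4.3.3 on all genes (filterByExpr, minimum count 10, minimum total 15; TMM; robust quasi-likelihood F test; Benjamini-Hochberg adjustment, threshold 0.05). Standard errors came from the F statistic. The script was tested on simulated data. Alternatives were DESeq2 1.42.0, limma 3.58.1 (voom; log2 FPKM with pseudocounts 1 and 0.1), other scalings, filters, a replicate block and left-out libraries. Per the series design the replicates are biological; 1 batch label covers all libraries. The genes, the 5 related lists, the 10 cell type lists and the naming rule were chosen with earlier results of these data known. The rule takes every gene past the threshold in a related list, otherwise the 3 with the smallest p and a mean log2 CPM no lower than 1, and the 5 genes most like Fth1, Hmox1 and Tfrc. Shares of reads cover counting error only. Figures were drawn with matplotlib 3.10.9. For 2 genes that met a listing or naming rule, the result is not reported here.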

Additional observations from a re-analysis of the deposited data

How the results depend on the processing

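No alternative brought any of the 10 genes past an adjusted p of 0.05. Over all genes DESeq2 called 11 and edgeR without a low-count filter 1, against 0 in the other settings. Ftl1, near 0 in the fit reported, turned to log2 fold changes of -0.024 by limma voom, -0.0084 and -0.0092 by limma on log2(FPKM + 1) and log2(FPKM + 0.1), and -0.025 with the replicate block. Deviations from the group mean correlated between same-numbered libraries at -0.277, 0.0815 and 0.0728 for numbers 1, 2 and 3. With 3 libraries per group these values cannot settle whether the replicate numbers pair the libraries. The replicate block called 0 genes. Without control library 3 and cell-treated library 3 together, log2 fold changes were -0.32 for Ftl1, -0.013 for Tfrc, -0.071 for Slc11a2, -0.38 for Hmox1, -0.52 for Maff and -0.25 for Srxn1; the median was -0.066 for the 10 genes, -0.14 for Nrf2 targets and -0.29 for lipid peroxidation. With single libraries left out, values ranged from -0.23 to 0.097 for Fth1, -0.39 to 0.26 for Ftl1, 0.026 to 0.38 for Tfrc, -0.070 to 0.32 for Slc11a2, -0.098 to 0.28 for Slc40a1, -0.31 to 0.43 for Hmox1, -0.33 to 0.16 for Nfe2l2, -0.37 to 0.19 for Nqo1, 0.049 to 0.34 for Gclc and 0.00022 to 0.20 for Gclm. They ranged from -0.80 to 0.026 for Cd163, -0.24 to 0.040 for Slc48a1, -0.36 to 1.99 for Maff and -0.25 to 1.23 for Srxn1. Log2 ratios ranged from -0.35 to 0.15 for Fth1 to Ftl1, -0.13 to 0.22 for Gclc to Gclm and -0.26 to 0.49 for Tfrc to Slc40a1. List medians ranged from 0.014 to 0.20 for the 10 genes, 0.032 to 0.20 for iron handling, -0.062 to 0.19 for heme handling, -0.13 to 0.34 for Nrf2 regulators, -0.15 to 0.079 for Nrf2 targets and -0.26 to 0.15 for lipid peroxidation. The causes of these changes were not tested. Depth limits Nqo1 and Hmox1 most.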
